A study of Mus musculus with 12 samples.

Results

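The genes described here are 10 genes with which the gut lining answers microbes and inflammation: the serum amyloid A genes Saa1, Saa2 and Saa3, the siderophore-binding lipocalin Lcn2, the antimicrobial lectins Reg3b and Reg3g, the antibody transporter Pigr, the nitric oxide synthase Nos2, and the hydrogen peroxide generator Duox2 with its partner Duoxa2. They were taken as all probes whose accession maps to 1 of these symbols. That gave 11 probes for 9 of the 10 genes, on an array of 55681 probes, and 8 of the 9 were among the 24245 genes tested (14905 with a symbol and the rest under their accession or probe). No probe accession mapped to Duox2, so it has no value, and Reg3g was too dim to be tested. The list was drawn up around Saa2, which was chosen by its lower level with calcitriol in wild type, so wherever wild-type arrays enter, its values are a description with no test.

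RNA was measured in mouse colonic organoids, which are crypts of the colon epithelium grown in a gel matrix so that stem cells persist and divide. The 4 groups were Vdr-knockout organoids with calcitriol, Vdr-knockout organoids with vehicle, wild-type organoids with calcitriol and wild-type organoids with vehicle, each with 3 one-colour Agilent arrays. Calcitriol, or 1,25(OH)2D3, is the active form of vitamin D, and Vdr encodes its receptor. It was given at 100 nM in EtOH and renewed every 48 h, and the vehicle was EtOH. The labels give both 72 h and 62 h as the duration. All 6 mice, 3 of each genotype, were C57BL/6, aged 2 months (numbers 1 and 3 of each genotype) or 3 months (number 2). Each mouse gave 1 calcitriol and 1 vehicle culture. The knockout is labelled VDR KO with no further detail of the allele. Such cultures are started from epithelial crypts, and the immune cells that supply cytokines such as interleukin 22 to the gut wall are not part of the protocol.

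Serum amyloid A proteins bind lipids and retinol and are made by liver in the acute phase and by colon epithelium near bacteria. Lcn2 withholds iron from bacteria, Reg3b and Reg3g kill or repel them at the mucus, Pigr carries immunoglobulin A across the epithelium, and Nos2 and the Duox2 with Duoxa2 complex make reactive nitrogen and oxygen. Interleukin 22, interleukin 17 and interleukin 1 raise most of these genes in gut epithelium through STAT3, NF-kB and C/EBP factors, and bacteria are the usual trigger.

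The 250 bases before the annotated starts of the 3 serum amyloid genes are shown because Saa1 and Saa2 moved together on these arrays and Saa3 did not. They come from RefSeq on GRCm38.p6, 5′ to 3′ on the strand of each gene. Saa1 is taken from chr7:46742981-46743230 on the minus strand, Saa2 from chr7:46751583-46751832 on the plus strand and Saa3 from chr7:46715677-46715926 on the minus strand. In Saa1 and Saa2, capitals mark the bases at which the 2 windows differ or have no partner when aligned, and in Saa3 they mark a match to the C/EBP motif.
Saa1: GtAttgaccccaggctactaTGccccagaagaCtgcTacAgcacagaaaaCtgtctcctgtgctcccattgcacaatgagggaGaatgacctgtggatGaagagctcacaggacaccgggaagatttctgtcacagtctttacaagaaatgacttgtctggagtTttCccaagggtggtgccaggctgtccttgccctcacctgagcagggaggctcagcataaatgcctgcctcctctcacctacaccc
Saa2: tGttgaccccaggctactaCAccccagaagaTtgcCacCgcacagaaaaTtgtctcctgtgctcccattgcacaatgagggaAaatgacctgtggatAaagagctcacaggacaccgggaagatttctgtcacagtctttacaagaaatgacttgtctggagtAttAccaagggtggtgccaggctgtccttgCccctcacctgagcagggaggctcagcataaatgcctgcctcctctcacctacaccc
Saa3: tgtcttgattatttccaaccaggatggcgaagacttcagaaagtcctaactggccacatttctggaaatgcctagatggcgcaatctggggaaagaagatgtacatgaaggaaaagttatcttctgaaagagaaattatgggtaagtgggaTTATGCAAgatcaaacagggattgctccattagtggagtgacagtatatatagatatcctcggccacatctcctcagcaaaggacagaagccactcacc

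Saa1 and Saa2, neighbours on opposite strands of chromosome 7, had 238 identical bases of 250 (95.2%) in these windows, with 11 mismatches and 1 base without a partner on each side. Saa1 and Saa3 had 130 identical bases (52.0%). The C/EBP motif, searched as TTGCNNAA on both strands, matched once in Saa1, in Saa2, in Saa3 and in Lcn2, with the match beginning 182, 183, 99 and 216 bases before the start, and 9.56% of 32851 mouse promoter windows of this length hold it. The STAT motif TTCNNNGAA matched in Reg3b (7.02% of windows) and the NF-kB consensus in Reg3g (7.25%). The direct repeat of the vitamin D response element matched in none of the 9 members with a window and in 0.0396% of all windows. Nos2 had no window in the table. These are letter matches only. The near identity of Saa1 and Saa2 also bears on names, because the RefSeq table lists each symbol as an older synonym of the other. Here each probe follows its accession. Whether the 2 probes also bind the other transcript was not tested.

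Levels are given as the log2 processed signal minus the log2 of the 75th percentile of the array, so that 0 is the 75th percentile. That percentile was 580 to 791 signal units. One array, wild-type mouse 2 with vehicle, had raised low signals: 72.8% of its spots were well above background, compared with 54.9% to 66.3% elsewhere. Vdr ran at -0.43 to 0.37 on the 6 knockout arrays, against 1.07, 0.82 and 1.18 in wild-type calcitriol and 1.13, 1.66 and 2.01 in wild-type vehicle, so the genotypes did not overlap. Whether its probe lies in the deleted part is not known here. Cyp24a1, which breaks calcitriol down, was not well above background on any of the 6 knockout arrays and lay at 5.59 to 6.45 in wild-type calcitriol. All 12 epithelial markers, Epcam and Muc2 among them, exceeded background on every array. So did 9 of the 18 leukocyte markers on the array, the endothelial markers Pecam1, Kdr and Vwf, and of the 9 fibroblast markers Vim alone, with Lum and Pdgfra above background on none. Each marker was taken by its brightest probe, and other probes of some disagreed. Kdr lay at 1.51 to 2.95 on 1 probe and at -8.14 to -6.24, above background on 0 arrays, on the other. Itgam lay at 2.56 to 3.94 on its brightest probe and at -5.90 to -2.81 on the rest. Other probes of Cd4 and Csf1r were dimmer too. The Y-linked gene Ddx3y ran from 0.56 to 0.75 in mice of number 2, whose label is female, and from -8.18 to -6.83 in the rest, some of them labelled male. The data thus go against the labelled sex, which is used nowhere below. The arrays lay on 3 slides of 7, 3 and 2, and only wild-type mouse 3 had both its arrays on 1 slide.

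**Figure D1:**
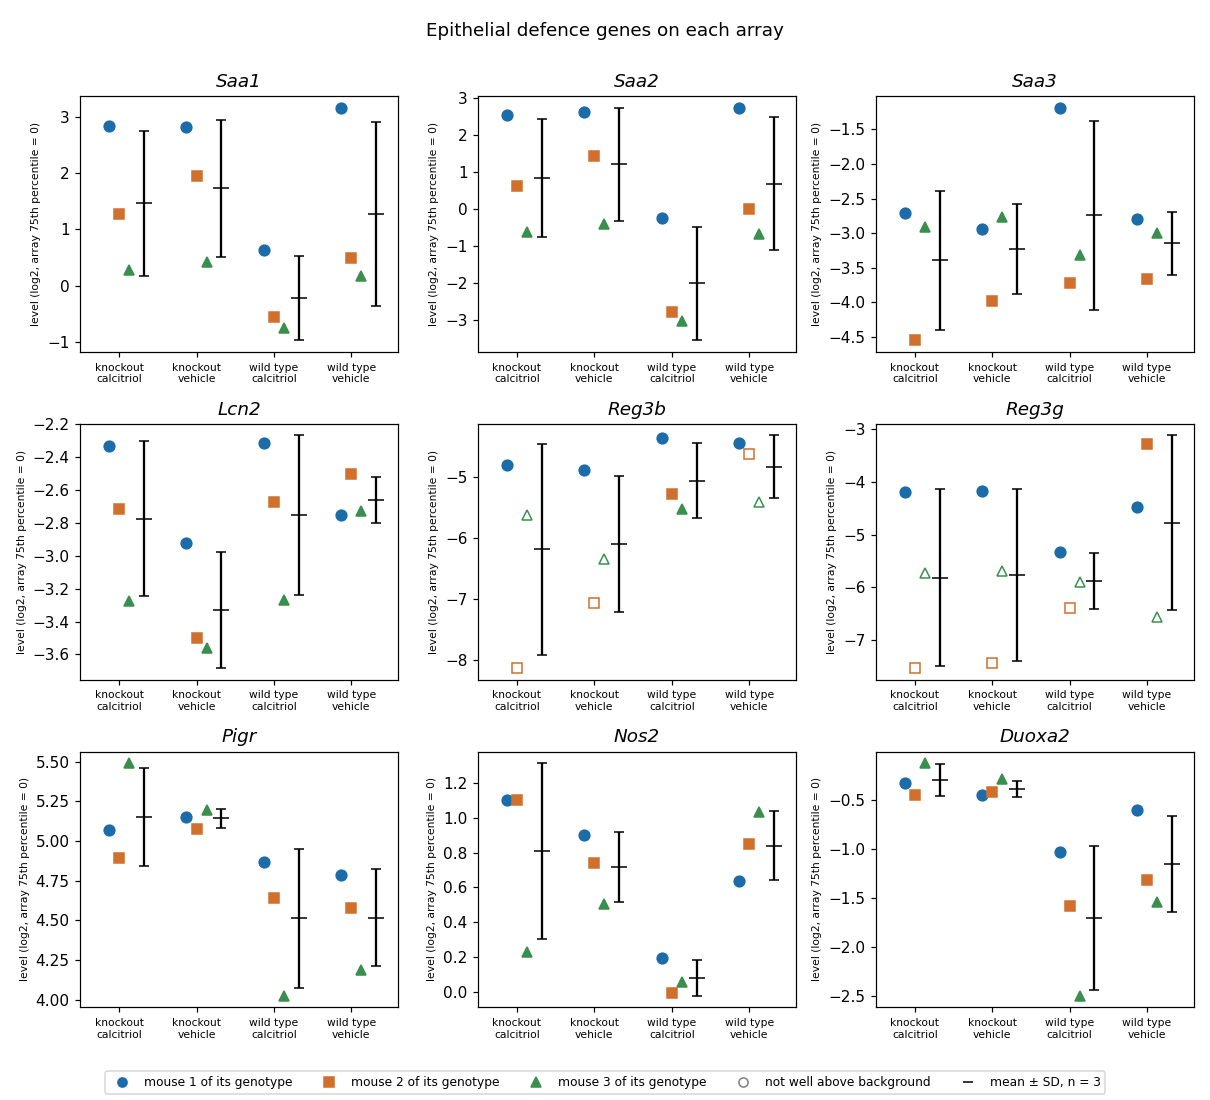
Level of the 9 measured members on each of the 12 arrays (log2, with the 75th percentile of the array at 0), in the 4 groups, with symbols for the mouse numbers, open symbols for arrays not well above background, and the mean ± SD (n = 3) beside each group. Saa1 and Saa2 are lowest in wild-type calcitriol and are high on the arrays of number 1, Pigr and Duoxa2 sit higher in knockout than in wild type, and Nos2 is lowest in wild-type calcitriol.

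Saa1 and Saa2 were lower with calcitriol in all 3 wild-type mice, and their differences in knockout mice were smaller. Saa1 lay at 0.63, -0.56 and -0.75 in wild-type calcitriol (mice 1, 2 and 3), against 3.16, 0.49 and 0.17 in wild-type vehicle. The 2 groups overlapped, because mouse 1 with calcitriol was above mice 2 and 3 with vehicle, but within each mouse the calcitriol array was the lower one, by 2.53, 1.05 and 0.92. Their means were -0.23 ± 0.74 with calcitriol and 1.27 ± 1.64 with vehicle (SD, n = 3 each), a difference of -1.50 (SE 0.86), or 2.83-fold. It did not pass over all genes in limma's moderated test (adjusted p = 1.00, and 0.0849 with mouse as a block). The SE was 0.30 with mouse as a block. In RNA from whole cultures, fewer cells that make a transcript and less of it in each cell cannot be told apart, here and below.

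Saa2 lay at -0.24, -2.77 and -3.01 in wild-type calcitriol, against 2.74, 0.02 and -0.67 in wild-type vehicle. Each mouse was lower with calcitriol, by 2.98, 2.78 and 2.34, and again mouse 1 with calcitriol lay between the vehicle arrays of the other 2 mice. The means were -2.01 ± 1.54 and 0.69 ± 1.80, a difference of -2.70 or 6.5-fold. Of all 24245 genes, 0.586% were lower by at least 0.9 in all 3 wild-type mice, as Saa1 and Saa2 were. That share is given as the background of a choice that Saa2 itself fixed, and nothing is read from it. Mouse 3, the one mouse with both arrays on a single slide, gave -0.92 for Saa1 and -2.34 for Saa2. Within the largest slide, where wild-type vehicle is mouse 3 alone, the group differences were -0.40 for Saa1 (adjusted p = 0.999) and -1.33 for Saa2. That comparison sets 3 calcitriol arrays against the mouse with the lowest vehicle level. Without the vehicle array of mouse 1, the Saa1 difference was -0.56 and that of Saa2 -1.68, since the mean of the vehicle group then loses its highest array.

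In knockout organoids Saa1 lay at 2.84, 1.28 and 0.28 with calcitriol, against 2.82, 1.95 and 0.41 with vehicle. Saa2 lay at 2.54, 0.62 and -0.62 with calcitriol, against 2.63, 1.43 and -0.41 with vehicle. The differences were -0.26 (SE 0.86) for Saa1 and -0.37 (SE 1.1) for Saa2, both with adjusted p = 1.00, and 0.760 and 0.576 with mouse as a block. The groups overlapped fully for both genes. Saa2 was slightly lower in each knockout mouse, by 0.09, 0.81 and 0.21, as were 12.7% of all genes. With single arrays left out the differences ran from -0.95 to 0.33 for Saa1 and from -1.21 to 0.36 for Saa2, positive without the vehicle array of mouse 1 or the calcitriol array of mouse 3. They were 1.07 and 1.28 after blocking on slide and 1.64 and 1.99 in the largest slide alone, which set different mice against each other, and no knockout mouse had both arrays on 1 slide, so mouse and slide cannot be told apart.

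The difference between the 2 genotypes in their response, wild type minus knockout, was -1.24 for Saa1 (SE 1.21, adjusted p = 1.00, and 0.571 with mouse as a block). The Saa1 value was -0.47 with scaling to the array median, -2.61 after blocking on slide and -2.04 in the largest slide alone. For Saa2 it was -2.33, a description. Each wild-type mouse had a lower difference than any knockout mouse for both genes, as for 9.48% of all genes, and for Saa2 this follows from how it was chosen. The smallest wild-type difference was -0.92 for Saa1 and -2.34 for Saa2, and the largest knockout one was -0.67 for Saa1 and -0.81 for Saa2.

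**Figure D2:**
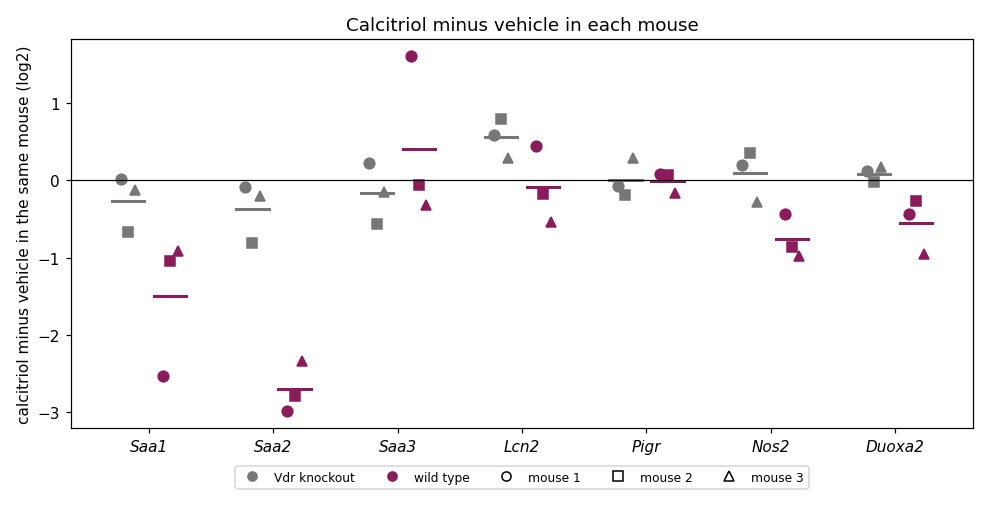
Calcitriol minus vehicle in the same mouse (log2 difference) for 7 members above background on all 12 arrays, with knockout left and wild type right of each gene, symbols for the mice and bars for the mean of 3 mice. In knockout Saa1, Saa2, Nos2 and Duoxa2 lie between -0.81 and 0.36, and in all 3 wild-type mice they lie below 0.

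In calcitriol, the means of Saa1 and Saa2 were higher in knockout than in wild type, and the groups overlapped for both genes, with knockout mouse 3 below wild-type mouse 1. The Saa1 difference was 1.69 (SE 0.86), or 3.23-fold, with means of 1.47 ± 1.29 in knockout and -0.23 ± 0.74 in wild type. It did not pass without a block (adjusted p = 1.00) but did so with replicate number as the block (SE 0.32, adjusted p = 0.0399). The replicate number is not the mouse, so the calcitriol and vehicle arrays of 1 mouse entered that fit as independent. With that block 1.03% of all genes passed, 0.33% of all genes being higher in knockout, and Saa1 was the 1 tested member among them. The call ended without wild-type mouse 1 or 2 (0.112 and 0.148) or without knockout mouse 1, 2 or 3 (0.228, 0.176 and 0.0557). It held without wild-type mouse 3, with quantile normalization and with scaling to the median, and it ended with normexp background correction. Saa2 was higher in knockout by 2.85, a description. In vehicle the genotypes overlapped as well, with Saa1 at 1.73 ± 1.22 in knockout and 1.27 ± 1.64 in wild type, and Saa2 at 1.22 ± 1.53 and 0.69 ± 1.80. After blocking on slide both vehicle differences turned, to -0.90 and -1.15.

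Saa1 and Saa2 also differed by mouse number in both genotypes. Leaving out the wild-type calcitriol arrays, Saa1 averaged 2.94 on the 3 arrays of number 1 (2.82 to 3.16), 1.24 on those of number 2 (0.49 to 1.95) and 0.29 on those of number 3 (0.17 to 0.41). Saa2 averaged 2.63, 0.69 and -0.57 on the same arrays. The 3 numbers did not overlap for either gene, as for 6.29% of all genes, although the wild-type and knockout mice of a number are different animals. Between genotypes a number stands for 1 labelled age and sex. Some other genes, picked after their values were seen, were also high on arrays of number 1. The share of all genes that are so was not counted. S100a8, a calprotectin subunit of neutrophils and of inflamed epithelium, lay at 1.76 to 1.98 on the 4 arrays of number 1 and at -0.61 to 0.26 on the other 8. Socs3, which STAT3 induces and which restrains it, lay at 1.72 to 2.01 and at -0.36 to 0.99. The leukocyte markers, S100a8 among them, were mixed in this. Cd68 was also high on arrays of number 1, at 2.42 to 2.70 against 0.75 to 2.15. Cd14 was not, at 2.57 to 3.12 against 2.21 to 4.04, nor were Itgam and Csf1r. S100a8 lay at 1.97, -0.20 and -0.19 in wild-type calcitriol, against 1.76, -0.42 and 0.26 in wild-type vehicle, higher with calcitriol in mice 1 and 2 and lower in mouse 3. The part of leukocyte RNA in these levels was not tested. The summed level of the 18 leukocyte markers was 4.42 to 5.35 in knockout calcitriol, 4.47 to 4.93 in knockout vehicle, 4.77 to 5.12 in wild-type calcitriol and 4.34 to 5.09 in wild-type vehicle. That sum takes the brightest probe of each marker, that of Itgam included, whose other probes were far dimmer.

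Saa3, the family member made by macrophages as well as by epithelium, did not share this pattern. In knockout it lay at -2.71, -4.55 and -2.92 with calcitriol, against -2.93, -3.98 and -2.77 with vehicle. In wild type it lay at -1.19, -3.73 and -3.31 with calcitriol, against -2.79, -3.66 and -2.99 with vehicle. The 4 groups overlapped throughout, and 1 array, that of wild-type mouse 1 with calcitriol, stood above the other 11. Over the 12 arrays Saa1 and Saa2 correlated at r = 0.98, and Saa3 correlated with them at 0.08 and 0.10. The arrays share mice and slides, so these values describe the 12 arrays and carry no p.

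**Figure D3:**
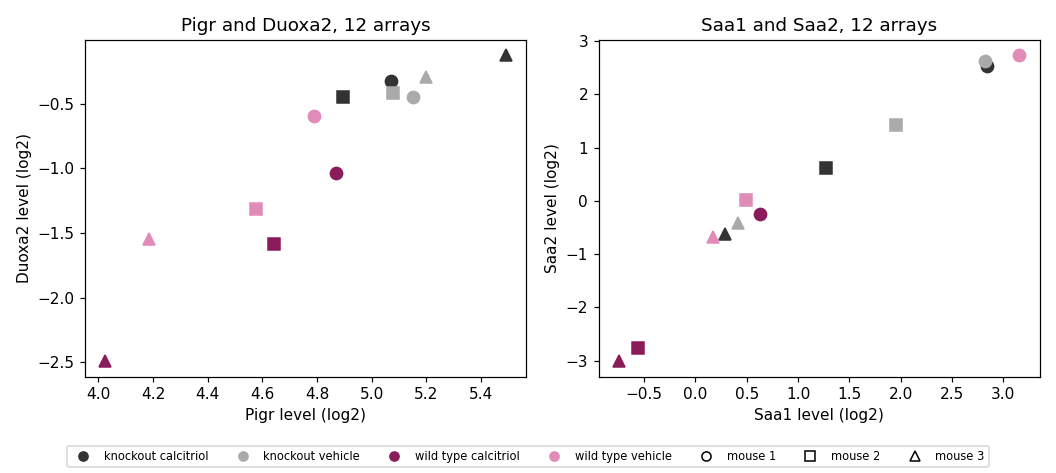
Levels (log2) of Duoxa2 against Pigr, left, and of Saa2 against Saa1, right, on the 12 arrays, coloured by group with symbols for the mouse numbers. Duoxa2 is high where Pigr is high (r = 0.93), with the 6 knockout arrays at the top, and Saa2 is high where Saa1 is high (r = 0.98), with 2 wild-type calcitriol arrays at the bottom.

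Nos2, the inducible nitric oxide synthase, was lower with calcitriol in wild type. It lay at 0.19, -0.01 and 0.06 in wild-type calcitriol, against 0.63, 0.85 and 1.03 in wild-type vehicle. The groups did not overlap, and each mouse was lower with calcitriol, by 0.44, 0.86 and 0.98. Of all genes, 4.22% had wild-type groups that did not overlap with calcitriol lower, and 18.2% were lower in all 3 mice. Nos2 averaged 0.08 ± 0.10 with calcitriol and 0.84 ± 0.20 with vehicle, a difference of -0.76 (SE 0.23), or 1.69-fold. It did not pass (adjusted p = 0.673, and 0.0827 with mouse as a block). Scaling to the array median gave -0.29 (adjusted p = 0.589), blocking on slide -1.15 (adjusted p = 0.190), and the largest slide alone -0.95 (adjusted p = 0.343).

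In knockout, Nos2 lay at 1.1, 1.1 and 0.23 with calcitriol, against 0.90, 0.74 and 0.51 with vehicle. The groups overlapped, and the mice differed in direction, with mice 1 and 2 higher and mouse 3 lower. The difference was 0.09 (SE 0.23, adjusted p = 1.00). After blocking on slide it was 0.50 and with scaling to the array median -0.20. The difference between the responses was -0.85 (SE 0.32, adjusted p = 1.00, and 0.351 with mouse as a block), or -0.09 with that scaling and -1.64 after blocking on slide. In calcitriol, knockout Nos2 stood above wild type on every array, by 0.73 on average (SE 0.23, adjusted p = 0.754, and 0.226 with the block). In vehicle it averaged 0.72 ± 0.20 in knockout and 0.84 ± 0.20 in wild type, and the groups overlapped; scaling to the median turned that difference to 0.64. Of all genes, 3.7% stood higher in knockout calcitriol without overlap.

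Duoxa2, which carries Duox2 to the cell surface and is needed for its activity, was higher in knockout than in wild type under both treatments. In calcitriol it lay at -0.33, -0.44 and -0.12 in knockout, against -1.03, -1.58 and -2.49 in wild type. In vehicle it lay at -0.45, -0.42 and -0.29 in knockout, against -0.60, -1.31 and -1.54 in wild type. All 6 knockout arrays therefore stood above all 6 wild-type arrays, as for 0.181% of all genes, and the knockout arrays were close together while the wild-type mice spread widely.

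The Duoxa2 difference in calcitriol was 1.41 (SE 0.33), or 2.65-fold, with adjusted p = 0.257, and 0.0608 with the replicate number as a block. It passed without wild-type mouse 1 (1.74, adjusted p = 0.0429). The difference in vehicle was 0.77 (SE 0.33), with adjusted p = 0.562 without and 0.307 with the block. Of all genes, 2.27% stood higher in knockout vehicle without overlap. Fitting slide as a block gave differences of 1.26 in calcitriol and 1.15 in vehicle, and the largest slide alone gave 1.32 and 1.25, with adjusted p between 0.599 and 1.00. The vehicle difference was 1.53 with scaling to the array median, which moves the median of all genes by 0.70 in that comparison. Within wild type, Duoxa2 was lower with calcitriol in each mouse, by 0.44, 0.27 and 0.95, a mean difference of -0.55 (SE 0.33, adjusted p = 1.00, and 0.218 with mouse as a block). Without the calcitriol array of mouse 3 it was -0.16, as in the largest slide alone, and it was -0.27 after blocking on slide and -0.08 with scaling to the median. In knockout the difference was 0.09 (SE 0.33, adjusted p = 1.00), and the difference between the responses was -0.64 (SE 0.47, adjusted p = 1.00), or -0.12 after blocking on slide and 0.12 with scaling to the median. A second Duoxa2 probe was dim, at -6.40 to -3.35, and exceeded background on 7 of the 12 arrays, so it gives no check of the first.

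Pigr, the receptor that moves immunoglobulin A into the lumen, was the brightest of the members' probes and followed Duoxa2 across arrays (r = 0.93). In calcitriol it lay at 5.07, 4.89 and 5.49 in knockout, against 4.87, 4.64 and 4.03 in wild type. In vehicle it lay at 5.15, 5.08 and 5.20 in knockout, against 4.79, 4.58 and 4.19 in wild type. The genotypes did not overlap under either treatment (3.7% of all genes were higher in knockout in this way in calcitriol and 2.27% in vehicle), although in calcitriol the lowest knockout array (4.89) was close to the highest wild-type array (4.87). The differences were 0.64 in calcitriol (SE 0.22, adjusted p = 1.00) and 0.63 in vehicle (SE 0.22, adjusted p = 0.558), and they did not pass with the block (0.387 and 0.302). The vehicle difference was 1.38 with scaling to the median and 1.02 after blocking on slide. A second Pigr probe gave means of 3.36 ± 0.18 in knockout and 2.94 ± 0.55 in wild type in calcitriol, and 3.22 ± 0.26 and 2.92 ± 0.38 in vehicle. On that probe the genotypes overlapped under both treatments. Between treatments, the first probe averaged 4.51 ± 0.44 with calcitriol and 4.52 ± 0.31 with vehicle in wild type, and 5.15 ± 0.31 and 5.14 ± 0.06 in knockout.

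Lcn2 lay at -2.33, -2.71 and -3.27 in knockout calcitriol, against -2.92, -3.50 and -3.56 in knockout vehicle. In wild type it lay at -2.31, -2.67 and -3.27 with calcitriol, against -2.75, -2.50 and -2.73 with vehicle. The 3 knockout vehicle arrays were thus below the 3 wild-type vehicle arrays, while the calcitriol arrays of the genotypes lay side by side. That gap averaged -0.67 (SE 0.32), with adjusted p = 0.582 without and 0.302 with the block, and 5.91% of all genes stood lower in knockout vehicle without overlap. It was 0.09 with scaling to the array median and -1.12 after blocking on slide. In knockout Lcn2 was higher with calcitriol in each mouse, by 0.59, 0.79 and 0.29, as were 15.9% of all genes. That difference was 0.55 (SE 0.32, adjusted p = 0.870, and 0.576 with mouse as a block), or 0.26 with scaling to the median, 0.90 after blocking on slide and 1.04 in the largest slide alone.

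The Reg3 lectins were near the limit of detection. Reg3b exceeded background on 3 arrays of wild-type calcitriol and on 1 array of each other group, and it entered the test through that 1 group. Its levels were -4.80, -8.13 and -5.62 in knockout calcitriol, against -4.88, -7.08 and -6.34 in knockout vehicle. In wild type they were -4.37, -5.28 and -5.53 with calcitriol, against -4.45, -4.63 and -5.41 with vehicle. The arrays above background were those of number 1 and, in wild-type calcitriol, all 3. Reg3g was above background on 1 array of each knockout group, 1 of wild-type calcitriol and 2 of wild-type vehicle, and it lay between -7.54 and -3.28. Its highest array, at -3.28, was the vehicle array of wild-type mouse 2, which had the raised low signal. No fold is given for either gene.

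Without a block, limma called 0 of the 8 members tested in the comparison within knockout and 0 of 7, Saa2 being left out, in each of the other 4 comparisons. Over all genes it called 0.161% in wild type with calcitriol, 0.0% in knockout with calcitriol, 0.0289% for the difference between the responses, 0.00412% for the genotypes in vehicle and 0.206% for the genotypes in calcitriol. In that order, unadjusted p was under 0.05 for 1104, 1400, 820, 2119 and 727 of the 24245 genes. With the replicate number as a block the shares were 0.969%, 0.0%, 0.239%, 0.0165% and 1.03%, and with Saa2 left out it called 1 member, Saa1, between the genotypes in calcitriol. Comparisons within wild type and between genotypes share their wild-type arrays, so the low wild-type calcitriol values of Saa1, Nos2 and Duoxa2 enter both.

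The genes whose levels followed each member most closely over the 12 arrays were taken from 13017 named genes above background on all of them. Saa1 and Saa2 were nearest to each other. Next came Ttr (0.96) and Maob (0.96) for Saa2, which encode a carrier of thyroid hormone and retinol and a mitochondrial amine oxidase. For Saa1 they were Lrrk2 (0.94), a kinase, and Upk1a (0.94), a uroplakin. Pigr had Gab3 (0.99), Ermn (0.98) and Rhox8 (0.93), and Duoxa2 had Gab3 (0.93), Pigr (0.93) and 1700019D03Rik (0.92). Nos2 and Lcn2 had weaker nearest genes, Iqgap1 at 0.84 and Zfp874b at 0.92, and Saa3 had Trpm6 at 0.90.

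Ttr, best known from liver and choroid plexus, was 1 of the listed liver markers. Its likeness to Saa2, a gene chosen by its fall, is a description only. In knockout it lay at -0.32, -1.25 and -1.94 with calcitriol, against -0.38, -1.28 and -1.93 with vehicle. In wild type it lay at -2.59, -3.73 and -3.76 with calcitriol, against -0.71, -1.50 and -1.85 with vehicle. The wild-type difference was -2.01. Without a block 0 of the 3 liver markers tested passed. With mouse as a block Ttr was called lower in wild type (as 0.297% of all genes) and for the difference between responses (0.0206%). With the replicate number as a block it was called higher in knockout in calcitriol (0.33%). The latter and the wild-type call held without any 1 of the 6 mice. The call between responses ended without wild-type mouse 1 or knockout mouse 1 or 2. Of the other liver markers, Serpina1a was above background on 12 arrays, Alb on 11 and Apoa1 on 1.

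Other defence genes were measured to see how far the members stand for their class. Of 22 gut antimicrobial and mucus genes 16 were tested, and in wild type 10 of them were above 0 with calcitriol, with a median of 0.07 against -0.03 over all genes. Without a block 0 of them passed. With mouse as a block 4 rose and 0 fell, where 0.672% of all genes rose and 0.297% fell. Those were Itln1, a lectin of goblet cells that binds microbial sugars (2.37, adjusted p = 0.000509 with the block), Mptx1, a pentraxin of secretory cells (3.04, 0.0162), Slpi, a protease inhibitor with antibacterial action (2.02, 0.0191), and Ltf, the iron-binding lactoferrin (1.5, 0.0347). Without a block they stood at 0.340, 0.315, 1.00 and 1.00.

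Itln1 lay at 1.58, -0.11 and 0.68 in knockout calcitriol, against 1.55, -0.52 and 0.81 in knockout vehicle. In wild type it lay at 4.04, 2.84 and 2.32 with calcitriol, against 1.43, 0.32 and 0.33 with vehicle. The wild-type groups did not overlap, as for 4.74% of all genes with calcitriol higher, and its blocked call held without any 1 of the 6 mice. In wild-type mice 1 and 2 the calcitriol and vehicle arrays lay on different slides, so slide and treatment cannot be told apart there. This applies to each wild-type call with mouse as a block. The blocked call of Mptx1 ended without wild-type mouse 1 or 3 or knockout mouse 2 (0.128, 0.115 and 0.0554), and that of Slpi without wild-type mouse 2 or knockout mouse 2 (0.176 and 0.0607). That of Ltf ended without wild-type mouse 1, 2 or 3 or knockout mouse 2 (0.216, 0.151, 0.178 and 0.0899). Of 8 goblet markers 7 were above 0, and 0 passed without a block. With mouse as a block 2 rose and 1, Reg4, fell. Spink4 (0.91, adjusted p = 0.0162 with the block) and Tff3 (0.64, 0.00934) rose, and both calls ended without any 1 of the wild-type mice (0.0625 to 0.148). The summed level of the 8 goblet markers was 6.96 to 7.63 in knockout calcitriol, 6.81 to 7.63 in knockout vehicle, 7.05 to 8.01 in wild-type calcitriol and 6.55 to 7.67 in wild-type vehicle, and its part in these results was not tested.

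**Figure D4:**
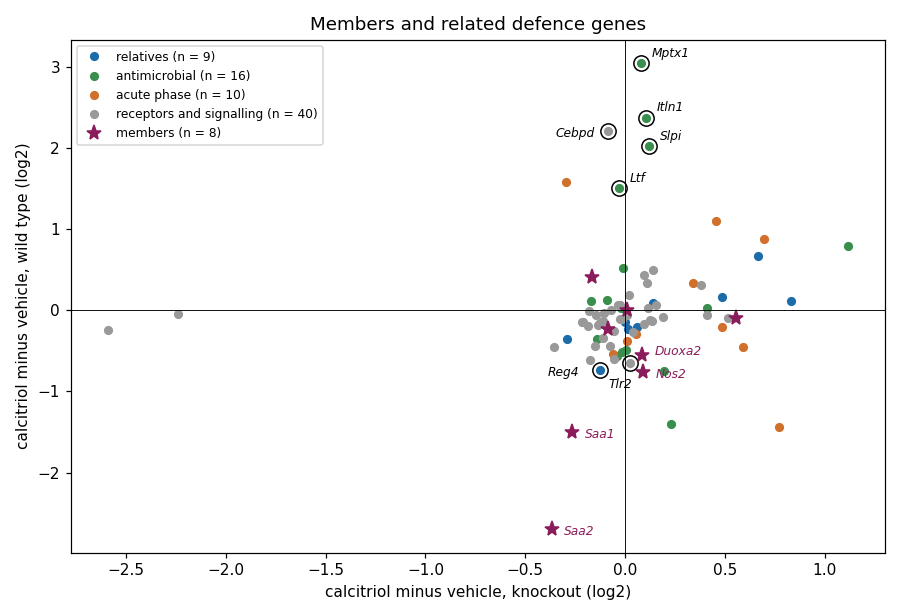
Calcitriol minus vehicle (log2 difference) in wild type, vertical axis, against knockout, horizontal axis, for 8 tested members (stars) and the tested genes of the related lists (points, coloured by list), with circles around related genes called in wild type with mouse as a block. Itln1, Mptx1, Slpi, Ltf and Cebpd lie high near 0 on the horizontal axis, Saa1 and Saa2 lie low, and the 2 points farthest left, Cebpb and Il22ra1, each rest on 1 low array of knockout mouse 1 with calcitriol.

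Of 14 acute-phase genes 10 were tested and 0 passed in wild type with or without the block, with 4 above 0 and a median of -0.25. In knockout 8 of the 10 were above 0, with a median of 0.40 against 0.04 over all genes, and 0 passed. In the same comparison 11 of the 12 leukocyte markers tested (median 0.56) and 3 of 3 endothelial markers (median 0.47) were above 0. Again 0 of them passed, and their part was not tested. Some of these markers followed the slide on their brightest probe. Itgam lay at 3.04 to 3.94 on the 7 arrays of the largest slide and at 2.56 to 2.92 on the rest. Kdr lay at 2.32 to 2.95 and at 1.51 to 2.17. Others, such as Cd14 and Vwf, did not split this way. Knockout mice 1 and 2 had calcitriol on that slide and vehicle on another, so slide and treatment cannot be told apart in them. Lbp, which presents bacterial lipopolysaccharide to its receptor, exceeded background on 3 wild-type calcitriol arrays and on 0 wild-type vehicle arrays. It exceeded background on 1 array of each knockout group and entered the test through wild-type calcitriol alone, so no fold or test is given. Of 17 relatives of the members' families 9 were tested, 4 of them above 0 in wild type, with a median of -0.15, and 0 passed without a block. With the block Reg4, a lectin of goblet and deep crypt cells, fell by 0.73 (adjusted p = 0.0192). That call ended without wild-type mouse 1, 2 or 3 or knockout mouse 2 (0.123, 0.113, 0.0691 and 0.0655). Nox1, the main superoxide generator of colon epithelium, differed by -0.36 and its partner Noxo1 by -0.23, and neither passed.

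Of 41 receptor and signalling genes of the pathways that raise such genes, 40 were tested. The list includes inhibitors such as Socs1 and Socs3, so its counts are no measure of pathway activity. In wild type with calcitriol 11 were above 0, with a median of -0.11. The 1 gene called without a block was Cebpd, a C/EBP factor of inflammation and differentiation, which rose (as did 0.153% of all genes). In knockout it lay at 2.19, 1.87 and 1.79 with calcitriol, against 2.37, 1.87 and 1.88 with vehicle. In wild type it lay at 4.47, 4.10 and 4.23 with calcitriol, against 2.57, 1.93 and 1.70 with vehicle. The wild-type calcitriol arrays stood clear of the other 9. How many of all genes do so was not counted. The difference in wild type was 2.20 (SE 0.22, adjusted p = 0.00159), or 2.30 after blocking on slide (0.0543) and 2.57 in the largest slide alone (0.0627). The call held without any 1 array and ended without wild-type mouse 2 (0.0674). Between genotypes in calcitriol it was -2.32 (adjusted p = 0.000677). Cebpb, the other C/EBP factor of the acute phase, did not share this: it lay at 1.98, 2.29 and 2.30 in wild-type calcitriol, against 2.37, 2.55 and 2.40 in wild-type vehicle.

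With mouse as a block Tlr2, a receptor for bacterial lipoproteins, fell by 0.65 in wild type (adjusted p = 0.0162, and 0.0823 without the block). It lay at 0.56 to 0.73 on the 6 knockout arrays, and at 0.10, 0.06 and 0.21 in wild-type calcitriol, against 0.69, 0.81 and 0.83 in wild-type vehicle. The wild-type groups did not overlap, as for 4.22% of all genes with calcitriol lower, and 0.297% of all genes were called lower with the block. The Tlr2 call ended without wild-type mouse 1, 2 or 3 or knockout mouse 2 (0.125, 0.150, 0.0942 and 0.0546). On the cytokine side of the pathway, in wild type, Stat3 differed by -0.12, Il10rb by -0.01, Il17ra by 0.06, Nfkb1 by -0.18, Rela by -0.11 and Nfkbiz, a cofactor that induces Lcn2, by -0.06, and none of these passed with or without the block. Others moved further without passing. Means with calcitriol and vehicle were 2.40 and 2.84 for Relb, -1.77 and -1.15 for Il18r1, and -2.31 and -1.71 for Nod2. Between genotypes in calcitriol, Relb and Tlr2 were called higher in knockout with the replicate number as a block, as 0.33% of all genes were. Both calls ended without any 1 mouse (adjusted p of 0.122 to 0.191 for Relb and 0.0945 to 0.173 for Tlr2). In knockout with calcitriol 16 of the 40 genes were above 0 and 0 passed with or without the block.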

How the data were processed

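Colonic organoid RNA from 3 wild-type and 3 Vdr-knockout mice was measured on 12 arrays. The authors deposited the linear processed intensity of each spot, which Agilent Feature Extraction 11.5.1.1 had corrected for background, with no normalization between arrays, per the file headers, where the annotation build is mm9. Per the labels' protocols, 100 ng of RNA was labelled with 1 dye.

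Control and outlier spots were dropped, the deposited intensities were put on the log2 scale, centred on the 75th percentile per array, and averaged over the spots of a probe. Of 55681 probes 28026 had 1 gene symbol, 0 had several and 27655 had none, by matching accessions to RefSeq (GRCm38.p6). A probe needed signal well above background on every array of some group (33410 probes), and the one with the highest mean stood for its gene. The resulting 24245 genes, 14905 of them with a symbol, entered limma 3.58.1 (R 4.3.3) as 4 group means on 12 arrays with a variance trend, 2-sided, with Benjamini-Hochberg adjustment and a threshold of 0.05. The scripts were tested on simulated data.

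Vehicle and calcitriol arrays of a number are from 1 mouse. Deviations from group means correlated at 0.57, 0.32 and 0.32 in wild-type mice and at 0.26, 0.59 and 0.10 in knockout mice. Between genotypes they correlated at 0.41, 0.40 and 0.34 in calcitriol and 0.64, 0.13 and 0.40 in vehicle. The replicate number was therefore the block of a second fit. Within a genotype and for the difference between responses, this block was the mouse. Between genotypes it was the number shared by both genotypes. There, as in the fit without a block, the calcitriol and vehicle arrays of 1 mouse entered as independent. The members and the related lists were chosen with earlier results of these data known. All 10 members were to be named, with called genes of each list, up to 4 further examples, and for each member above background on all arrays the 3 most correlated genes. Genes and markers that illustrate a list beyond this rule, among them S100a8, Socs3, Nox1 and Stat3, were chosen after their values were seen. Alternatives were other normalizations and background corrections, filters on dim probes, slide as a block, the largest slide alone, the groups compared alone, no variance trend, and arrays or mice left out. The block combined with a mouse left out or with another normalization was added after seeing the data. The number of arrays limits the precision.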

Additional observations from a re-analysis of the deposited data

Results flagged for a closer look

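Among the related and control genes named, Cebpd and Itln1 had calcitriol differences in wild type that differed from those in knockout by the test of the difference itself. For Itln1 this was so only with mouse as a block. Ttr, also called only with the block, is described above. The difference of differences was 2.29 for Cebpd (limma adjusted p = 0.0418, and 0.00266 with mouse as a block). Without a block this held without 1 of the 12 arrays when each was left out and ended without each of the other 11 (adjusted p of 0.0632 to 0.16), and the value stayed between 2.11 and 2.54. It also ended without 5 of the 6 mice, left out in turn (up to 0.437), and was 2.28 after blocking on slide (0.894) and 2.41 in the largest slide alone (0.602). With mouse as a block it held without any 1 mouse. For Itln1 it was 2.27 (adjusted p = 1.00, and 0.00759 with the block, which ended without wild-type mouse 1 or 2 at 0.0571 and 0.101). The Cyp24a1 probe exceeded background on 3 wild-type calcitriol arrays, on 1 wild-type vehicle array and on 0 knockout arrays. It entered the test through wild-type calcitriol alone, so no difference or test is given for it.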

How the results depend on the processing

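Of 760 values of 20 member differences under 38 other settings, 736 kept their direction and 24 turned. The 20 were a selection, with Saa3 and Reg3b not among them. They include Saa2 in wild type with calcitriol and between genotypes in calcitriol, where its choice fixed the direction. The count is therefore no measure of how stable the members are. The count of members called, with Saa2 left out wherever wild-type arrays enter, was 0 in the fit without a block. It was 0 to 1 in wild type when mice or arrays were left out, the 1 being Nos2 with the replicate block and without knockout mouse 3 (adjusted p = 0.0217), and 0 to 1 between genotypes in calcitriol. There it was 1 with the replicate block (Saa1), which changed no other call of a tested member. It was 1 with the block and quantile normalization (Saa1), 2 with the block and scaling to the median (Saa1 and Duoxa2), and 1 with the block and normexp (Duoxa2). In the left-out settings it was Duoxa2, Saa1 or Nos2, with Nos2 at an adjusted p of 0.00792 without knockout mouse 3. Between genotypes in vehicle it was 2 with the block and scaling to the median (Duoxa2 1.53 and Pigr 1.38).

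In knockout, Saa1 was 1.07 after blocking on slide, 1.64 in the largest slide alone and -0.95 to 0.33 with arrays or mice left out, and Saa2 was 1.28, 1.99 and -1.21 to 0.36. Nos2 there was 0.50 after blocking on slide, 0.59 in the largest slide alone, -0.20 with scaling to the median, with or without the block, -0.0412 with the block and without knockout mouse 2, and -0.0546 to 0.38 with arrays or mice left out. Duoxa2 there was -0.21 with scaling to the median, with or without the block, -0.15 after blocking on slide, -0.10 in the largest slide alone, and -0.0008 to 0.16 with arrays or mice left out. With scaling to the median, with or without the block, the Duoxa2 difference between responses was 0.12 and the Lcn2 difference between genotypes in vehicle 0.0915. That scaling moved the median of all genes by 0.44 in wild type, -0.25 in knockout, 0.69 for the difference between responses and 0.70 between genotypes in vehicle. Over all genes, calls in wild type, the difference between responses, vehicle and calcitriol numbered 39, 7, 1 and 50, against 235, 58, 4 and 249 with the block, 6, 1, 0 and 34 after blocking on slide, 3, 2, 0 and 16 in the largest slide alone, 70, 21, 2 and 50 with scaling to the median and 60, 18, 1 and 64 with normexp. Fewer arrays enter the largest slide. The cause of each other change was not tested. Slide and treatment overlap, since all 3 wild-type calcitriol arrays lay on the largest slide. Nothing can be said of Duox2, and Reg3g and Reg3b were too dim for folds.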
